A study of Homo sapiens with 4 samples.

Results

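Receptors that mark the invasive, dedifferentiated state of melanoma were followed here, beside receptors tied to the pigmented state or to neither, in A375 cells in which the cancer-testis gene MAGE-A1 had been raised or targeted. The set is a fixed list of 10 genes taken by symbol, AXL, its ligand GAS6, TYRO3, EGFR, NGFR, MET, ERBB2, ERBB3, IGF1R and FGFR1, out of 23284 gene symbols in each file, and all 10 were found above 0 in all 4 libraries. A375 is an established human melanoma line, and every library came from A375 cells that stably carried a plasmid: the empty pcDNA3 vector (vector library), pcDNA3 with MAGE-A1 (overexpression library), pRNAT with a scrambled hairpin (scramble library) or pRNAT with a MAGE-A1 hairpin (knockdown library). The labels do not say whether the transfected cells were pools or single clones, nor which promoters drove the inserts. Each group held 1 library, so no test was possible, no difference has a replicate check, and every ratio compares 2 libraries.

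Receptor tyrosine kinases bind a ligand outside the cell, pair up and phosphorylate each other, which starts signalling through RAS and MAPK, PI3K and AKT. In melanoma, high AXL, EGFR and NGFR with low MITF are known from cells that have lost pigment features. Such cells invade and tolerate inhibitors of the MAPK pathway. These receptors need not mark the same cells, and NGFR is a marker of neural crest-like cells. ERBB3 is typical of cells that keep the neural crest and melanocyte factor SOX10. NGFR, the low-affinity neurotrophin receptor, belongs to the tumour necrosis factor receptor family and has no kinase domain, and GAS6 is a secreted ligand. The label of receptor kinases therefore does not hold for these 2 members.

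Levels are RPKM, reads scaled to transcript length and to library size. Where 4 values follow a gene without library names, they stand in the order vector, overexpression, scramble, knockdown. A log2 ratio divides a library by its own control after adding 1 to each RPKM, so ratios of weakly expressed genes come out too small. A gene that reached 1 RPKM in at least one library of a pair was measured there, and it counted as higher or lower from 2-fold (a log2 ratio of 1). Depth, estimated from the steps in low values, was between 12620000 reads (overexpression) and 24510000 (vector). MAGEA1 was at 1.80 and 126 RPKM in the vector and overexpression libraries and at 0.767 and 0.473 in the scramble and knockdown libraries. The last ratio of 0.616 (95% exact conditional interval 0.284 to 1.29, counting error only) includes 1, so a lower MAGEA1 level in the library labelled knockdown was not detectable. The controls themselves differed in MAGEA1, with a ratio of scramble to vector of 0.426 and an interval of 0.242 to 0.718, which excludes 1. SOX10, the neural crest and melanocyte factor, was at 281, 288, 288 and 336 RPKM, MITF at 11.4, 9.59, 9.75 and 7.17, and the pigment genes MLANA and PMEL were below 1 RPKM in all 4. Of markers of other cell types, PTPRC of leukocytes was at most 0.0436 RPKM, PECAM1 of endothelium at most 0.108 and KRT5 of keratinocytes at most 0.0869. Others of the same lists were higher. CD68 of the leukocyte list was at 27.3, 23.8, 32.5 and 39.8 RPKM and KRT10 of the keratinocyte list at 14.4, 32.9, 10.7 and 19.6. TIE1 of the endothelial list reached 3.90 in the scramble library. The summed level of the whole list ran from 5.91 to 13.4 RPKM for 8 fibroblast genes, 17.2 to 33.3 for 6 keratinocyte genes, 25.6 to 42.3 for 6 leukocyte genes and 1.38 to 5.73 for 5 endothelial genes, and its part in the results was not tested.

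Of the 10 genes, 5 were higher with MAGE-A1 overexpression (AXL, NGFR, GAS6, MET and EGFR) and 1 was lower (IGF1R). With the knockdown hairpin 5 were lower (AXL, NGFR, MET, EGFR and IGF1R) and 0 higher. Among all measured genes, 10.6% were higher and 7.28% lower with overexpression, and 12.4% were higher and 8.52% lower with knockdown. Between the scramble and vector libraries, neither of which carries a MAGE-A1 construct, 0 of the 10 were past 2-fold in either direction, against 0.893% of all genes higher and 1.79% lower, and the widest difference was that of AXL at a log2 ratio of 0.58. The median log2 ratio of the 10 was 0.71 with overexpression, -0.86 with knockdown and 0.22 between the controls, where all measured genes had medians of 0.02, 0.06 and -0.02. These are bulk libraries, in which a larger share of cells with a receptor and more of its RNA per cell cannot be told apart.

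**Figure D1:**
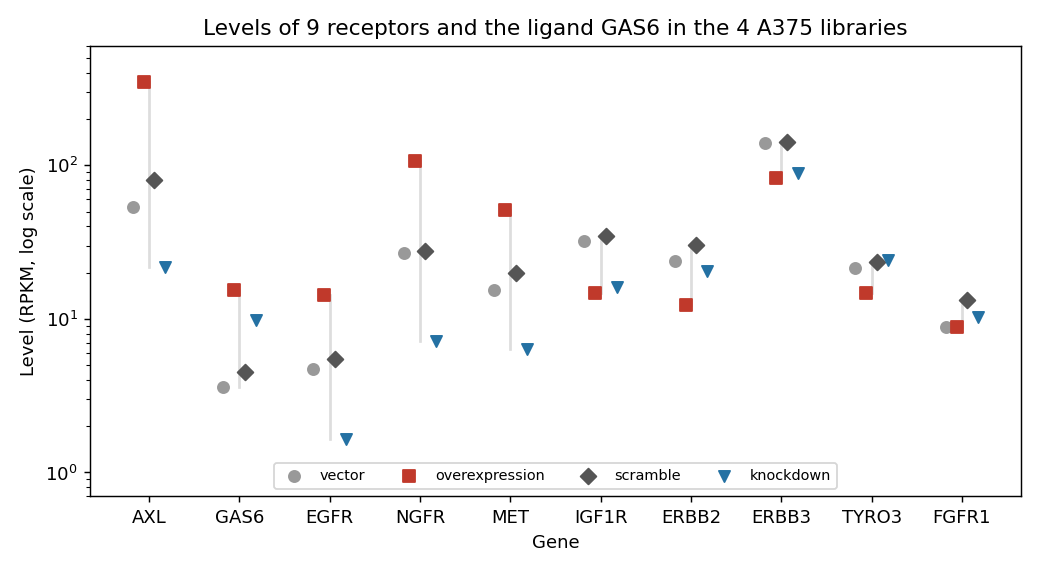
Level of each gene in RPKM on a log axis, 1 point for each of the 4 libraries, with a grey line over the range. AXL, EGFR, NGFR and MET have their highest point in the overexpression library and their lowest in the knockdown library, while ERBB3 is lower in both than in either control.

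AXL is a receptor of the TAM family (TYRO3, AXL and MERTK), which binds the vitamin K-dependent protein GAS6. AXL (GRCh38 chromosome 19, 41219203 to 41261766, plus strand) was at 53.7 RPKM with the empty vector, 347 with overexpression, 80.6 with the scrambled hairpin and 21.9 with the knockdown hairpin. The overexpression library lay far above both controls and the knockdown library below both. The log2 ratios were 2.67 with overexpression and -1.84 with knockdown. From estimated reads, of which AXL had 1947 to 19888 a library, the RPKM in the overexpression library was 6.46 times that in the vector library (95% exact conditional interval 6.28 to 6.65). The ratio of knockdown to scramble was 0.271 (0.257 to 0.285). These intervals, like those that follow, cover counting error only. Only 356 of 13577 measured genes had a larger ratio with overexpression, and 160 of 13569 a lower one with knockdown. The controls themselves differed in AXL, with an interval of 1.45 to 1.56 for the RPKM ratio of scramble to vector, and against the other control the 2 log2 ratios of AXL were 2.09 and -1.26.

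GAS6, the ligand of AXL (chromosome 13, 113820549 to 113864067, minus strand), was at 3.60 RPKM with the empty vector, 15.4 with overexpression, 4.52 with the scrambled hairpin and 9.88 with the knockdown hairpin. Both libraries made to alter MAGE-A1 were thus above both controls, so ligand and receptor moved the same way with overexpression and opposite ways with knockdown. The log2 ratio was 1.83 with overexpression and 0.98 with knockdown, just short of 2-fold. From 169 to 444 estimated reads, the RPKM ratios were 4.27 and 2.19 (1.82 to 2.62). Against the vector library the knockdown ratio was 1.24 on the log2 scale and passed 2-fold. With a fitted trend over transcript length and GC content removed it was 0.44. PROS1, the other ligand of the family, stayed within 2-fold at 5.16, 6.07, 3.91 and 2.11 RPKM.

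TYRO3, the second TAM receptor (chromosome 15, 41557675 to 41583586, plus strand), was at 21.5, 14.8, 23.7 and 24.1 RPKM. It did not follow AXL: the lowest value was in the overexpression library and the other 3 lay close together. The log2 ratios were -0.51 and 0.02, and the RPKM ratio of knockdown to scramble was 1.02 (0.969 to 1.07). MERTK, the third TAM receptor, was below 1 RPKM throughout. The AXL level was 2.50 times that of TYRO3 with the empty vector, 23.4 times with overexpression, 3.41 times with the scrambled hairpin and 0.908 times with the knockdown hairpin. In the knockdown library alone TYRO3 was thus the more abundant of the 2, by RPKM.

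NGFR (chromosome 17, 49495293 to 49515017, plus strand), a marker of neural crest-like melanoma cells, was at 27.1 RPKM with the empty vector, 106 with overexpression, 27.9 with the scrambled hairpin and 7.13 with the knockdown hairpin. The controls were nearly equal, and the other 2 libraries lay on either side of them. Log2 ratios came to 1.94 with overexpression and -1.83 with knockdown. The RPKM ratio of overexpression to vector was 3.93 (3.73 to 4.14), that of knockdown to scramble 0.256 (0.230 to 0.285), and that of scramble to vector 1.03, with an interval that includes 1. Among its ligands, BDNF was higher with overexpression, at 2.48 and 15.4 RPKM, and at 3.01 and 1.11 in the scramble and knockdown libraries (log2 ratios 2.23 and -0.93).

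EGFR, the receptor for EGF, TGF-alpha and amphiregulin (chromosome 7, 55019021 to 55211628, plus strand), was the least abundant of the 10 in the knockdown library. It was at 4.74 RPKM with the empty vector, 14.4 with overexpression, 5.45 with the scrambled hairpin and 1.65 with the knockdown hairpin. As with NGFR, the controls were close to each other and lay between the other 2. Its log2 ratios were 1.42 and -1.28, and the RPKM ratios were 3.03 (2.81 to 3.27) and 0.303 (0.265 to 0.345). With the trend over length and GC removed, the knockdown log2 ratio was -0.75 and EGFR was no longer past 2-fold. With a pseudocount of 5 in place of 1, neither ratio of this weakly expressed gene passed (0.99 and -0.65).

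MET, the receptor for hepatocyte growth factor (chromosome 7, 116672390 to 116798386, plus strand), was at 15.5, 51.2, 20.1 and 6.41 RPKM. The order of the libraries was that of EGFR. The log2 ratios were 1.66 and -1.51, and the RPKM ratios were 3.30 (3.14 to 3.47) and 0.320 (0.294 to 0.347). With the trend removed the knockdown ratio was -0.98, just short of 2-fold. HGF, its ligand, was at most 0.210 RPKM in any library.

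The sequence upstream of the start sites is shown for AXL, EGFR and MET, since these genes moved together in both pairs and the series title names the AP-1 factor JUN. RefSeq windows on GRCh38.p14 were found for 7 of the 10 genes, and NGFR, ERBB3 and FGFR1 had none. The 250 bases before each listed start were searched on both strands for TGANTCA (AP-1), GGAATG (TEAD) and CATGTG (an E-box that MITF can bind). Each printed sequence is on the plus strand, 5′ to 3′, and stops before the first base that GENCODE annotates as an exon, and capitals mark motif matches.
AXL, first start, chr19:41218973-41219202: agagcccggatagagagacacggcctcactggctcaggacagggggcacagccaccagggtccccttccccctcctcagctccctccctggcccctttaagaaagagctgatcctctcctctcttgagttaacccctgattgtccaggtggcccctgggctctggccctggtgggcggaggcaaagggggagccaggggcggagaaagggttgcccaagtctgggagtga
EGFR, first start, chr7:55018767-55019016: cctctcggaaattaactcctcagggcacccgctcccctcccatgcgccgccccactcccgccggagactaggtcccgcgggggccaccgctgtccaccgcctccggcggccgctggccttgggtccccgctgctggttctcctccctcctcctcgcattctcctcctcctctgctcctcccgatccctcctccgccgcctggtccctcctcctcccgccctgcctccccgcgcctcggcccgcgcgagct
EGFR, second start, chr7:55109589-55109722: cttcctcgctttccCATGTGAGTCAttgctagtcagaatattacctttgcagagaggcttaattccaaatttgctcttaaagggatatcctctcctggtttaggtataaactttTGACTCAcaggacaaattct
MET, chr7:116671946-116672195: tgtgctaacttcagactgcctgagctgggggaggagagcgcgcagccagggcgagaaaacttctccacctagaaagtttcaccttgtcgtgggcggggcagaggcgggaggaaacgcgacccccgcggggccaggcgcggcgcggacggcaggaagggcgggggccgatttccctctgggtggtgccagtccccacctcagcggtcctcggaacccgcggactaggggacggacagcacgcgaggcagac

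The window of the second EGFR start, which lies within the EGFR gene, held 2 AP-1 matches, TGAGTCA at 232 bases and TGACTCA at 136 bases before the start, and the first of them overlaps an E-box match. The printed part of that window is intronic by the annotation, and its last 116 bases, left out here, are exonic and hold a TEAD match (CATTCC on the plus strand, 114 bases before the start). Neither first-start window of AXL and EGFR held any of the 3 motifs, nor did the MET window. The window of the second AXL start, not printed, lies within the AXL gene and outside annotated exons, and it held a TEAD match (CATTCC, 212 bases before the start) and an E-box match (CACATG, 79 bases), but no AP-1 match. Of 35116 RefSeq windows of this length, 6.57% held TGANTCA with any middle base, 11.9% the TEAD motif and 9.42% the E-box. Single matches to TGANTCA also stood upstream of TYRO3 (TGAATCA, 220 bases before the first start) and of ERBB2 (TGATTCA, 222 bases). Their middle base is A or T, where the 2 EGFR matches have G and C. By the annotation, 178 of the 250 bases of that TYRO3 window are exonic. All 250 of the ERBB2 window lie in exons of ERBB2 or PGAP3. Whether any of these matches is bound or acts on its gene was not tested. The files give 1 value per gene, so RNA from the 2 EGFR starts was not told apart. JUN itself was at 11.03, 42.0, 15.4 and 1.73 RPKM.

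**Figure D2:**
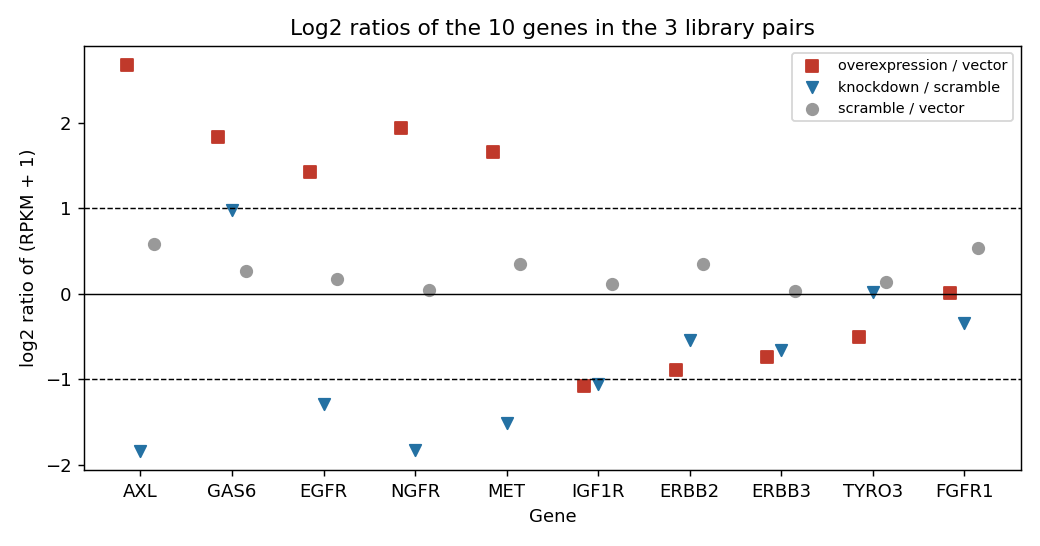
Log2 ratio of (RPKM + 1) for each gene in 3 library pairs, 1 point a pair, with dashed lines at 2-fold. AXL, EGFR, NGFR and MET lie above the upper line with overexpression and below the lower line with knockdown, and all 10 scramble against vector points lie between the lines.

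ERBB3, a receptor for neuregulins whose own kinase is nearly inactive and which signals by pairing with ERBB2, was the most abundant receptor of the set in 3 of the 4 libraries. ERBB3 (chromosome 12, 56076799 to 56103505, plus strand) was at 139 RPKM with the empty vector, 83.0 with overexpression, 142 with the scrambled hairpin and 89.7 with the knockdown hairpin. Both libraries made to alter MAGE-A1 lay below both controls, which were close to each other. ERBB3 stayed within 2-fold at log2 ratios of -0.74 and -0.66, with RPKM ratios of 0.596 (0.579 to 0.613) and 0.629 (0.613 to 0.646). With the libraries rescaled to a common sum of RPKM without small RNA genes, where the median of all measured genes shifted by -0.45 with knockdown, the knockdown ratio of ERBB3 was -1.17, past 2-fold.

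ERBB2 has no known ligand of its own and is the preferred partner of the other ERBB receptors. ERBB2 (chromosome 17, 39687914 to 39730426, plus strand) was at 23.7, 12.3, 30.3 and 20.6 RPKM. Its lowest value was in the overexpression library, and the knockdown library lay just under the vector library. The log2 ratios were -0.89 and -0.54, within 2-fold, but against the scramble library the overexpression ratio was -1.23, past 2-fold. It passed 2-fold as well with the libraries rescaled to a common upper quartile (-1.08) or to the common sum (-1.04), and the knockdown ratio did so with the common sum (-1.02).

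IGF1R, the receptor for insulin-like growth factors (chromosome 15, 98648539 to 98964530, plus strand), was at 32.1 RPKM with the empty vector, 14.7 with overexpression, 34.8 with the scrambled hairpin and 16.2 with the knockdown hairpin. GAS6 was higher in both pairs but, with the pseudocount of 1, just short of 2-fold with knockdown (0.98). By that call IGF1R was the member past 2-fold in the same direction in both pairs, at log2 ratios of -1.07 and -1.06. Such lower values in both were shown by 130 of 13106 genes measured in both pairs (0.992%). The RPKM ratios were 0.458 (0.438 to 0.480) and 0.465 (0.447 to 0.484). IGF1R also has the longest transcript of the set, 12235 nt, and with the trend over length and GC removed the knockdown ratio was -0.62, while against the vector library it was -0.94. With a pseudocount of 5 both ratios fell short of 2-fold, at -0.91. INSR, the insulin receptor, was at 5.23, 5.36, 5.24 and 4.69 RPKM.

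FGFR1, a fibroblast growth factor receptor (chromosome 8, 38400215 to 38468834, minus strand), varied least, at 8.81, 8.84, 13.2 and 10.2 RPKM. The scramble library was the highest and the overexpression and vector libraries were nearly equal. On the log2 scale the ratios were 0.00 and -0.34. The difference between the 2 controls (0.54) was wider than either. FGF2, a ligand of FGFR1, was lower with knockdown, at 5.51 and 1.79 RPKM, and was at 7.79 and 14.3 in the vector and overexpression libraries (log2 ratios -1.22 and 0.80). The FGF2 ratio with knockdown did not stay past 2-fold with the trend removed, where 0 ligands did.

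The order of the receptors differed between the libraries. In the vector and scramble libraries ERBB3 was first and AXL second by RPKM, followed by IGF1R. In the overexpression library the order was AXL, NGFR and ERBB3, and in the knockdown library ERBB3, TYRO3 and AXL, where TYRO3 (24.1 RPKM) and AXL (21.9) were close. The level of AXL was 0.386 times that of ERBB3 with the empty vector, 4.18 times with overexpression, 0.566 times with the scrambled hairpin and 0.244 times with the knockdown hairpin. Of the summed RPKM of the 9 receptors, AXL made up 16.5% with the empty vector, 53.2% with overexpression, 21.3% with the scrambled hairpin and 11.1% with the knockdown hairpin. ERBB3 made up 42.7%, 12.7%, 37.6% and 45.3% in the same order. AXL, EGFR, MET and NGFR together held 31.0%, 79.5%, 35.4% and 18.7%. The sum itself was 326, 653, 378 and 198 RPKM, so the shares moved together with a larger and a smaller total.

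**Figure D3:**
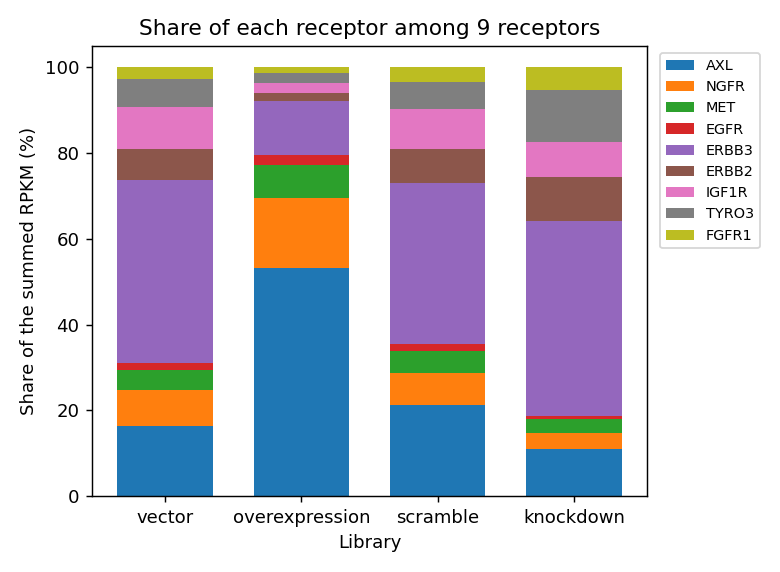
Share of each of the 9 receptors in their summed RPKM (%), 1 stacked bar for each library. AXL holds 53.2% of the bar of the overexpression library and 11.1% of that of the knockdown library, and ERBB3 12.7% and 45.3%.

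Read across both pairs, 4 of the 10 genes, AXL, NGFR, MET and EGFR, were past 2-fold upwards with overexpression and downwards with knockdown, a pattern shown by 127 of 13106 genes measured in both pairs (0.969%). The opposite pattern, lower with overexpression and higher with knockdown, was shown by 0 of the 10 and by 63 of all genes (0.481%). The 2 pairs share no library. The 10 genes were picked with earlier results of these libraries known, so their count is a description.

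**Figure D4:**
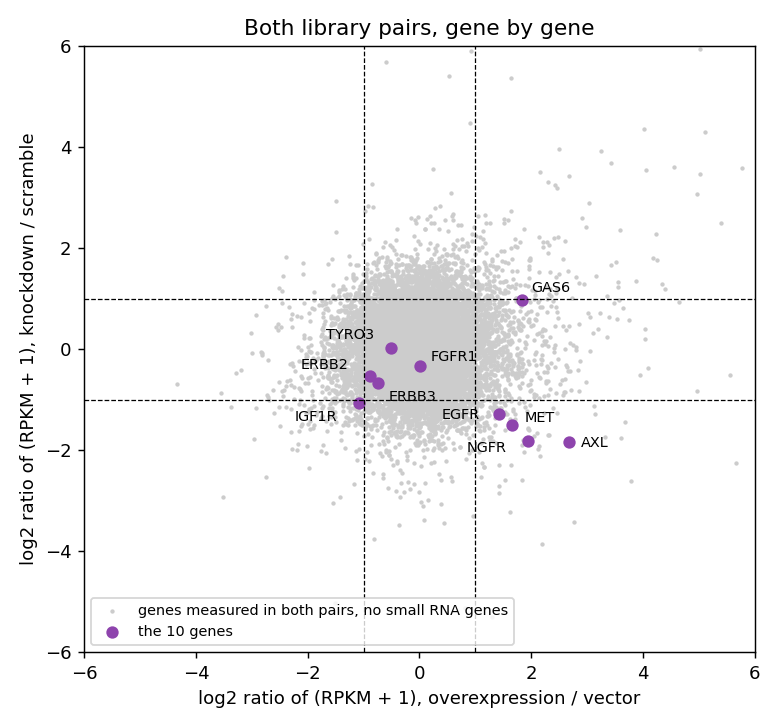
Log2 ratio with overexpression (x axis) against that with knockdown (y axis) for genes measured in both pairs, small RNA genes left out, with the 10 genes in purple and dashed lines at 2-fold. AXL, NGFR, MET and EGFR fall in the lower right field, IGF1R in the lower left, and GAS6 just under the upper line at the right.

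Knockdown ratios went with transcript length, and the members differ in length. Over 12551 genes with a length, Spearman's rho of the knockdown ratio was -0.525 with transcript length and 0.427 with GC content, a description, since genes do not replicate one another. Of 3941 genes with transcripts between 4000 and 8000 nt, 13.6% were lower with knockdown, as were 26.7% of 1025 longer ones. AXL (4737 nt) and NGFR (3417 nt) kept log2 ratios of -1.72 and -2.14 with the trend removed. MET (6635 nt), EGFR (9821 nt) and IGF1R (12235 nt) came to -0.98, -0.75 and -0.62, so that 2 of the 10 genes were then lower, against 5.04% of all genes on that scale. TYRO3, with a transcript of 8207 nt, was at 0.02 as deposited and at 0.37 with the trend removed. On the same scale AXL and NGFR were the members higher with overexpression and lower with knockdown, against 0.746% of genes. For overexpression against vector, rho was 0.053 with length and -0.215 with GC content. For scramble against vector it was -0.170 and 0.521, so ratios between the controls went with GC content too. With the trend removed, all 5 members higher with overexpression stayed past 2-fold, against 7.97% of all genes.

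**Figure D5:**
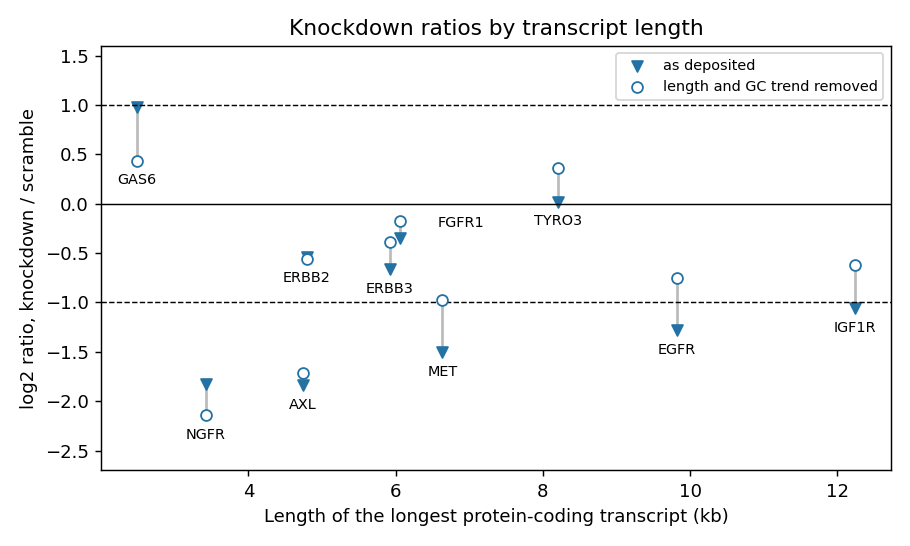
Knockdown log2 ratio of each gene against the length of its longest protein-coding transcript in kb, as deposited (triangles) and after removal of the fitted length and GC trend (circles), with dashed lines at 2-fold. NGFR and AXL stay below the lower line, while MET, EGFR and IGF1R cross it.

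Of 50 other receptor tyrosine kinases, 24 could be measured with overexpression, of which 3 were higher and 5 lower (median log2 ratio 0.02). With knockdown 25 could be measured, of which 1 was higher and 7 lower (median -0.44). Beside these counts and those of the lists below, 10.6% of all measured genes were higher and 7.28% lower with overexpression. With knockdown the shares were 12.4% and 8.52%. EPHA2, an ephrin receptor, was at 78.6 and 417 RPKM in the vector and overexpression libraries and at 136 and 59.6 in the scramble and knockdown libraries, log2 ratios of 2.39 and -1.17, the direction of AXL in both pairs. EPHA7 (-2.13) and the VEGF receptor KDR (-1.55) were the lowest with overexpression. The controls differed in both genes, with log2 ratios of scramble to vector of -0.73 for EPHA7 and -0.94 for KDR. KDR had 3.12 RPKM with the empty vector, 1.14 with the scrambled hairpin and 0.404 with overexpression. The size of its overexpression ratio therefore depends on which control is used. With knockdown TIE1 (-2.22), EPHA4 (-1.69) and EPHA3 (-1.64) were the lowest, and ALK was higher, at 0.181 and 1.89 RPKM. TIE1 also passed 2-fold upwards from vector to scramble (1.45).

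Of 25 further ligands of the receptors, 10 could be measured with overexpression, of which 4 were higher and 0 lower (median 0.53). HBEGF, a ligand of EGFR, was at 3.70 and 25.0 RPKM in the vector and overexpression libraries (2.46), and AREG, another, at 0.235 and 2.44 (1.48). NRG1, a ligand of ERBB3, was at 1.99 and 9.79 RPKM (1.85), thus higher where its receptor was at a log2 ratio of -0.74. With knockdown 9 could be measured, of which 0 were higher and 1, FGF2, was lower (median -0.11), which fell to 0 lower with the trend over length and GC removed. HBEGF was at 4.12 and 7.55 RPKM in the scramble and knockdown libraries (0.74). TGFA was the most abundant of the ligands named here in the vector library, at 131 RPKM, and stayed within 2-fold.

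Of 26 regulators of receptor signalling, 24 could be measured in each pair. With overexpression 3 were higher and 0 lower (median 0.56), with the EGFR inhibitor ERRFI1 at 108 and 526 RPKM (2.27), the feedback inhibitor SPRY2 at 102 and 350 (1.77) and the adaptor GRB10 at 5.47 and 31.3 (2.32). With knockdown 1 was higher and 7 lower (median -0.69), among them LRIG3, a membrane protein of a family that acts on receptor turnover, at 16.1 and 2.74 (-2.20), SOCS3 at 15.5 and 2.83 (-2.10), and the receptor phosphatases PTPRK (-1.62) and PTPRF (-1.55). GRB10 was the higher one (1.09), and so past 2-fold upwards in both pairs. Of 27 adaptors and relay proteins, all measured, 2 were higher and 1 lower with overexpression (median 0.02) and 2 higher and 4 lower with knockdown (median -0.56). With the trend over length and GC removed, the knockdown counts were 0 higher and 1 lower for the adaptors (median -0.19) and 1 and 4 for the regulators (median -0.33). Of all 12551 genes on that scale, 641 were higher and 633 lower. Rescaled to a common sum without small RNA genes, the knockdown counts were 1 and 12 for the adaptors and 0 and 13 for the regulators. There 741 of 13514 measured genes were higher and 2759 lower. Rescaled to a common upper quartile, 0 adaptors were higher and 2 lower with overexpression, beside 1123 higher and 1467 lower of 13589 measured genes. IRS1, the adaptor of IGF1R and the insulin receptor, was at 11.4 and 1.27 RPKM in the scramble and knockdown libraries (-2.45), and IRS2 was at 29.4 and 68.3 in the vector and overexpression libraries (1.19).

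Other genes of the invasive state did not all move with AXL. In a list of 25 such genes that leaves out the members, 9 were higher and 4 lower with overexpression (median -0.06), and with knockdown 0 were higher and 10 lower of 24 (median -0.70). This list was not counted again with the trend over length and GC removed. How far transcript length enters its knockdown count was therefore not tested. TGFBI, a matrix protein, was at 278 RPKM with the empty vector and 64.0 with overexpression (-2.10). Of the melanocyte lineage list, 11 of 21 genes could be measured, of which 2 were lower with overexpression (S100B, -2.29, and TFAP2A, -1.56), 1 was lower with knockdown (DCT, -2.10) and 0 were higher in either pair. SOX10 (0.03 and 0.22) and MITF (-0.23 and -0.40) stayed within 2-fold.

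For each member the 3 genes of most similar pattern were sought among 10286 genes at 5 RPKM or more in some library, by the Euclidean distance between log2(RPKM + 1) values centred on their mean over the 4 libraries. The nearest to AXL were FAM129A (distance 0.39), the semaphorin and VEGF co-receptor NRP1 (0.46) and the cytokine IL1A (0.47). FAM129A was at 19.5, 89.4, 23.6 and 5.48 RPKM. The nearest to MET was EGFR itself (0.24), followed by the ubiquitin ligase NEDD4L (0.24). EGFR had as nearest the tight junction gene TJP1 (0.08), RGNEF (0.12) and UNC13D (0.18). NGFR had the collagen chain COL6A3 (0.13), SLITRK6 (0.14) and SLFN5 (0.16). GAS6 lay nearest to the immediate early gene IER2 (0.11), at 43.3, 145, 52.3 and 106 RPKM, and to the clock gene NR1D1 (0.17). ERBB3 had SLC35E2 (0.06), IGF1R the DNA glycosylase NEIL3 (0.06), ERBB2 ZSWIM1 (0.05), FGFR1 the calponin CNN2 (0.05) and TYRO3 PRICKLE3 (0.03). With 4 libraries such distances describe the shape of the values and no more.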

How the data were processed

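RNA was measured in 4 libraries of A375 cells, 1 for each group, which came from the sample titles. The authors deposited RPKM values, 1 per gene symbol, per the file headers. Per the submitters' processing notes, the tools were Cufflinks 2.2.0, TopHat2 2.0.13, Bowtie2 2.2.4 and SAMtools 1.1 and the build hg19, with no role given, and the annotation is not given in the sources used here.

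From these values log2 ratios were computed with a pseudocount of 1 for genes at 1 RPKM or more in either library (Python 3.11.15, pandas 2.3.3, scipy 1.17.1). Depth was estimated from 2125 genes with a single GENCODE 29 transcript over 600 nt, whose RPKM × (length - 200)/1000 fell in steps of 1 read. Between 63.4% and 69.8% of low values lay within 0.1 of a whole read. Reads per gene take the longest protein-coding transcript, so for another isoform they would differ. Lengths were matched for 21511 symbols, 1445 of them by an older symbol. The length and GC trend was a spline fit (scikit-learn 1.9.0). Calls and the depth estimate were tested on simulated data. The simulation used the same shift of 200 nt and had no length or GC trend. It therefore could not check the shift, the transcript lengths or calls under such a trend. Coordinates are from GENCODE 29 (GRCh38), promoter windows from RefSeq (GRCh38.p14).

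The members and all gene lists were chosen with earlier results of these data known. Named were the 10 members, up to 4 genes of each list with the widest ratios past 2-fold in a pair, the 3 nearest patterns of each member and the title genes. Others (MERTK, PROS1, HGF, INSR, TGFA, SOX10, MITF, MLANA, PMEL, PAX3, RAB38 and the markers of other cell types) were chosen after their values were seen. Some listed genes are not reported here.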

Additional observations from a re-analysis of the deposited data

How the results depend on the processing

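No paired analysis was possible because each group held 1 library and no result came from a test, and leaving out a library was not possible for the same reason. The 10 genes gave 249 log2 ratios under the alternatives, of which 232 stayed on their side of 2-fold, 8 fell short of it, 9 passed it and 0 of those past 2-fold changed sign. The 232 include the ratios without a filter on low values and at 5 RPKM or more. Those settings only choose which genes count, so they could not change a member's ratio, and the tally overstates how stable the ratios were. AXL stayed between 2.09 and 2.81 with overexpression and between -2.33 and -1.26 with knockdown, and NGFR between 1.74 and 2.10 and between -2.28 and -1.44.

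Members lower with overexpression were 1 as reported, 0 with a pseudocount of 5 and 2 with a common upper quartile, a common sum, the other control or the mean of both controls. Members lower with knockdown were 5 as reported, 3 with a pseudocount of 5, 2 with the trend over length and GC removed, 4 against the other control and 7 with a common sum. Of all measured genes, 2759 of 13514 were lower with knockdown with a common sum, and 633 of 12551 with the trend removed. Members higher with knockdown were 0 as reported and 1 (GAS6) with a pseudocount of 0.1, the other control or the mean of both. The cause of these changes was not tested.

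Other receptor kinases past 2-fold were 8 in each main pair, with a pseudocount of 5 they were 3 with overexpression and 2 with knockdown, and at 5 RPKM or more, where fewer genes were left, 4 with knockdown. Between the controls they were 1, and 3, 0, 0 and 2 with a pseudocount of 0.1, of 5, at 5 RPKM or more and with a common sum. Ligands with knockdown were 1, and 2, 0, 3 and 0 with a pseudocount of 0.1, of 5, a common sum and the trend removed. Adaptors with overexpression were 3, and 1, 6 and 1 with a pseudocount of 5, the other control and the trend removed. With knockdown adaptors were 6, and 3, 13, 12 and 1 with a pseudocount of 5, a common sum, the other control and the trend removed. Regulators with overexpression were 3, and 6 with the other control. With knockdown they were 8, and 3, 13 and 5 with a pseudocount of 5, a common sum and the trend removed.

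A common sum moved the median of all genes with knockdown by -0.45, where 741 genes were higher and 2759 lower (1688 and 1156 as deposited). With overexpression a common upper quartile moved it by -0.18 (1123 higher and 1467 lower, against 1439 and 988) and a common sum by -0.14. Depth limited GAS6 most among the members, at 169 estimated reads in the scramble library.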
